A study of Homo sapiens with 6 samples.

Results

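The S100 genes encode small calcium-binding proteins of vertebrates. The 10 genes described here (*S100A2*, *S100A3*, *S100A4*, *S100A6*, *S100A10*, *S100A11*, *S100A13*, *S100A14*, *S100A16* and *S100P*) were taken by gene symbol from a table of 46427 genes. Each symbol matched a gene of the table, and 9 of the 10 passed the filter on low counts. They were compared between *ZK3*-WT cells, which are parental HCT116 cells with wild-type *ZKSCAN3*, and *ZK3*-KO cells, in which CRISPR/Cas9 removed the start codon of *ZKSCAN3* on both alleles. HCT116 is a human colorectal carcinoma cell line, and ZKSCAN3 is a zinc finger transcription factor with KRAB and SCAN domains. Both genotypes were grown in DMEM with 10% fetal bovine serum, with no further treatment, and polyadenylated RNA of 3 biological replicates of each was sequenced. The *ZK3*-KO cells went through drug selection and single-cell selection and the parental cells did not, so effects of the knockout and of clonal selection cannot be told apart here.

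An S100 protein carries a pair of EF-hand motifs, helix-loop-helix folds that hold a calcium ion, and usually works as a dimer. Calcium opens a surface through which the dimer binds partners such as annexins, myosin or p53. Most of the genes lie in a cluster on the long arm of chromosome 1, and several are studied in colorectal tumors, *S100A4* above all for its association with metastasis.

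Of the 10 genes, 9 lie on chromosome 1 in the GRCh37 annotation, the build of the deposited files, all on the minus strand. *S100A4* spans chr1:153516089-153522612, *S100A6* chr1:153507075-153508720, *S100A3* chr1:153519805-153521734 and *S100A2* chr1:153533584-153540366. *S100A16*, *S100A14* and *S100A13* follow at chr1:153579362-153585621, chr1:153586731-153589462 and chr1:153591263-153603836. *S100A10* (chr1:151955391-151966335) and *S100A11* (chr1:152004982-152020383) lie apart from these, and *S100P* is on chromosome 4 (chr4:6695605-6698897, plus strand). The span of *S100A4* contains that of *S100A3*, but their exons share 0 bases. *S100A13* overlaps *S100A1* on the opposite strand, with 235 shared exonic bases, and the strand setting of the counting is not given in the sources used here, so reads from these bases cannot be told apart. The annotated proteins are 90 to 105 residues long. Identity between pairs of the 10 proteins, counted over aligned residues, ranged from 22.2% to 60.8% with a median of 32.3%, and *S100A2* with *S100A4* was the closest of the 45 pairs. In the count table, 7 S100 pseudogenes had at most 1 read in any library.

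The 250 bases before the RefSeq start site are shown for the gene with the largest change, *S100A4*, for its neighbours *S100A5*, *S100A3* and *S100A6*, and for *S100A14*, the gene with the highest ratio of *ZK3*-KO replicate 3 to *ZK3*-KO replicates 1 and 2 among the 9 tested. They come from GRCh38.p14, unlike the coordinates above, and read 5′ to 3′ on the minus strand, the strand of each gene. Capitals mark exact matches, on either strand, to the TATA box core (TATAAA), the box named CCAAT, the GC box (GGGCGG) or the AP-1 type element (TGANTCA). The windows are chr1:153545807-153546056 for *S100A4*, chr1:153541810-153542059 for *S100A5*, chr1:153549259-153549508 for *S100A3*, chr1:153535992-153536241 for *S100A6* and chr1:153616326-153616575 for *S100A14*.
S100A4: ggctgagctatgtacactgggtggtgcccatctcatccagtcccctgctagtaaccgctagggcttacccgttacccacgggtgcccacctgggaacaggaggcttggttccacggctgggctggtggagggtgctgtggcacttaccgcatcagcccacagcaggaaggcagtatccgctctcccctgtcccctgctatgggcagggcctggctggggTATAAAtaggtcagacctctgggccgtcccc
S100A5: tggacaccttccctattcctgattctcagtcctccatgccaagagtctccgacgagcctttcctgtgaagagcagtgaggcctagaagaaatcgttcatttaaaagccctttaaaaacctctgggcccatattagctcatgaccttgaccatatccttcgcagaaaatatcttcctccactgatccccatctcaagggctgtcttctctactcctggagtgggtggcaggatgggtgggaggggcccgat
S100A3: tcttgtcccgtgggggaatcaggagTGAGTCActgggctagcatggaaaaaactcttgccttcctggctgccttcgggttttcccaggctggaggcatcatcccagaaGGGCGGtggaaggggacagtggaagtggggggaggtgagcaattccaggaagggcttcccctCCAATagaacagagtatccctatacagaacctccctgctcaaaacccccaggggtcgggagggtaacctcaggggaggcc
S100A6: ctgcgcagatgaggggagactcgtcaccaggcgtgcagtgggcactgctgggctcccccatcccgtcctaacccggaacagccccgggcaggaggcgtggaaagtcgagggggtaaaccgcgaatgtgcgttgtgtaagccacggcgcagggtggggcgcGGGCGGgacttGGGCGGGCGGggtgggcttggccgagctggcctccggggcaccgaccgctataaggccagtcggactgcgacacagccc
S100A14: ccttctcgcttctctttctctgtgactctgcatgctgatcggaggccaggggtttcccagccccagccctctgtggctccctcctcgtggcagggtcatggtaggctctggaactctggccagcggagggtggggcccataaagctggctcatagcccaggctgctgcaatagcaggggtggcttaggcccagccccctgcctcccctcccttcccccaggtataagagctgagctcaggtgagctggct

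TATAAA began 31 bases before the start of *S100A4* and 28 bases before that of *S100P*, and it was found in 11.1% of the 27305 windows of all genes. *S100A3* held the CCAAT box, the GC box and the AP-1 type element once each, which were found in 33.0%, 42.3% and 6.6% of all windows. *S100A6* held the GC box 3 times, the last 2 matches overlapping, and *S100A10*, *S100A11* and *S100A13* held it once each, and *S100A2* held the AP-1 type element once. The *S100A13* and *S100A5* windows precede RefSeq starts that lie upstream of the GRCh37 starts used for the distances below. The *S100A13* window lies outside the span of the gene given above. None of the 4 motifs was found in the windows of *S100A14*, *S100A16* and *S100A5*. CpG dinucleotides numbered 24 in *S100A6* and in *S100A10*, 15 in *S100A11* and in *S100A13*, 7 in *S100A4*, 4 in *S100A14* and 1 in *S100A16*, against a median of 11 over all windows. A match describes the letters only and was not tested as a binding site.

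Counts summed to between 60827060 and 69739215 reads per library. *ZK3*-KO replicate 3 stood apart, with correlations of log2 CPM across genes of 0.963 and 0.950 with *ZK3*-KO replicates 1 and 2, which had 0.985 with each other. The highest correlation of *ZK3*-KO replicate 3 with any other library, 0.965, was with *ZK3*-WT replicate 3. Values without *ZK3*-KO replicate 3 are therefore given beside the main results. *ZKSCAN3* itself had 28.1, 23.4 and 19.8 CPM (read counts scaled to library size with TMM factors) in *ZK3*-WT and 25.4, 24.9 and 13.6 CPM in *ZK3*-KO, so its read counts did not separate the genotypes (edgeR log2 fold change -0.16, adjusted p = 0.797) and do not show the edit. Of 10 epithelial and colon markers, 7 reached 1 CPM in a library, including *KRT8*, *KRT18*, *KRT19*, *EPCAM*, *CDH1* and *CDX2*. *CDX1* had 0 reads in every library, and *VIL1* and *LGALS4* were near 0. Their summed level was 2951 to 3743 CPM in *ZK3*-WT, 2934 and 2741 CPM in *ZK3*-KO replicates 1 and 2, and 5449 CPM in replicate 3. Of 14 markers of other cell types, *PTPRC* and *CD3E* had 0 reads in every library and 5 reached 1 CPM, with sums of 54.3 to 69.4 CPM in *ZK3*-WT and 69.1, 47.2 and 121 CPM in *ZK3*-KO, mostly from *COL1A1*. Of these markers *ACTA2*, the smooth muscle actin gene, named after its values were seen, was called higher. It had 4.39, 5.42 and 5.52 CPM in *ZK3*-WT and 11.1, 9.61 and 11.8 CPM in *ZK3*-KO. The edgeR log2 fold change was 1.08 (adjusted p = 0.0387, and 0.0125 without *ZK3*-KO replicate 3). Over all genes tested, 0.817% were called higher, and 7.41% without that library. *VWF* and *PDGFRB*, likewise named after their values were seen, were lower in *ZK3*-KO with no overlap between the genotypes. This held for 13.8% of all genes tested, and neither marker was called (edgeR adjusted p = 0.351 and 0.404).

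*S100A4* fell in *ZK3*-KO cells, and it was the only gene of the 9 tested to pass an adjusted p of 0.05. Its protein, also called metastasin, binds nonmuscle myosin and is associated with cell motility. The gene had 116, 118 and 94.6 CPM in the 3 *ZK3*-WT replicates and 4.22, 10.2 and 9.18 CPM in the 3 *ZK3*-KO replicates. The lowest *ZK3*-WT library was far above the highest *ZK3*-KO library, and *ZK3*-KO replicate 1 was the lowest of all. *ZK3*-WT averaged 109.5 ± 12.97 CPM (SD, n = 3) and *ZK3*-KO averaged 7.87 ± 3.20 CPM (SD, n = 3), or 7.19% of the *ZK3*-WT mean. The log2 fold change was -3.80 with a standard error of 0.34, a 13.9-fold lower level (edgeR adjusted p = 0.00469), and without *ZK3*-KO replicate 3 it was -3.91 (adjusted p = 0.000631). Over all 18366 genes tested, 2.05% passed the threshold, 1.23% lower and 0.817% higher in *ZK3*-KO, and 0.583% had a log2 fold change below -3. By p-value *S100A4* was the 25th gene of all those tested. It passed the threshold in each of the 14 alternative analyses, with an adjusted p of at most 0.0418.

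**Figure D1:**
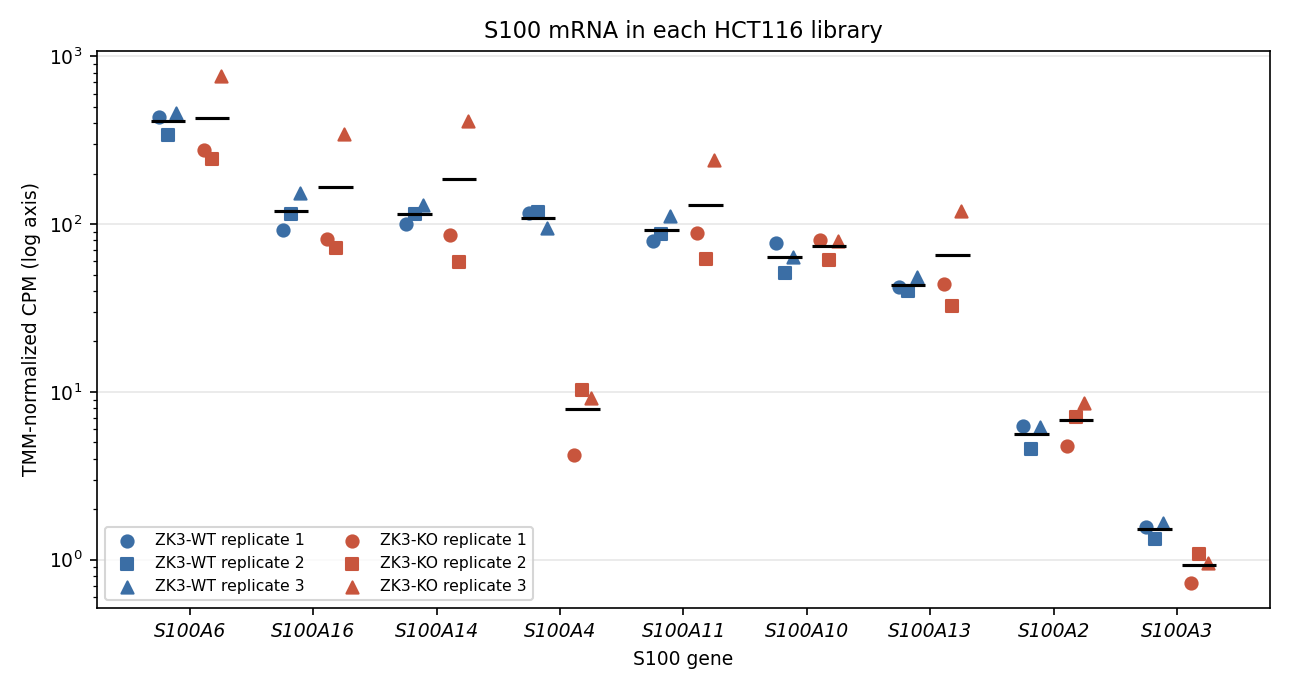
TMM-normalized CPM (log axis) of the 9 tested S100 genes in each library, ordered by the *ZK3*-WT mean, with *ZK3*-WT in blue, *ZK3*-KO in red, symbols for the replicate number and bars at the arithmetic mean. *S100A4* lay between 94.6 and 118 CPM in *ZK3*-WT and between 4.22 and 10.2 CPM in *ZK3*-KO, while for *S100A6*, *S100A16*, *S100A14*, *S100A11* and *S100A13* the red triangle, *ZK3*-KO replicate 3, was above every other library.

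On the TPM scale, which divides by transcript length and so allows levels of different genes to be compared, *S100A4* was the second most abundant of the 10 genes in *ZK3*-WT. *S100A6* led with a mean of 1988 ± 262 TPM (SD, n = 3), followed by *S100A4* at 450 ± 58.0 TPM and *S100A11* at 348 ± 61.1 TPM, and the ranges of these last 2 overlapped. *S100A14*, *S100A16* and *S100A10* followed at 230, 202 and 201 TPM with overlapping ranges, then *S100A13* at 114, *S100A2* at 12.2, *S100A3* at 4.29 and *S100P* at 0.288 TPM. In *ZK3*-KO the mean of *S100A4* was 29.4 ± 12.1 TPM (SD, n = 3), below that of *S100A13* and above that of *S100A2*, with ranges apart from both. *S100A6* still led at 1803 ± 980 TPM, and the ranges of *S100A11*, *S100A14*, *S100A16*, *S100A10* and *S100A13* each overlapped the next. *S100A4* made up 10.0% to 15.3% of the summed TPM of the 10 genes in *ZK3*-WT libraries and 0.564% to 2.09% in *ZK3*-KO libraries. The share of *S100A6* was 52.2% to 58.4% in *ZK3*-WT and 55.4% to 59.0% in *ZK3*-KO.

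*S100A5*, a neighbour of *S100A4*, fell as well. It was not among the 10 genes, and its protein is known from olfactory neurons. *S100A5* starts 4.9 kb from *S100A4* by the GRCh37 starts, and their proteins are 53.3% identical over the aligned residues. The promoter window shown for *S100A5* precedes another start, nearer to *S100A4*. It had 3.91, 3.15 and 3.58 CPM in *ZK3*-WT and 0.217, 0.375 and 0.534 CPM in *ZK3*-KO, with no overlap between the genotypes. The log2 fold change was -3.24 with a standard error of 0.37 (edgeR adjusted p = 0.00977), but the adjusted p rose to 0.0601, 0.0624 and 0.0573 when *ZK3*-WT replicate 1, 2 or 3 was left out. Without *ZK3*-KO replicate 3 the log2 fold change was -3.56 (adjusted p = 0.000726). The exons of the 2 genes share 0 bases. *S100A5* lies downstream of *S100A4* on the same strand. Per 100 reads of *S100A4* it had 2.67 to 3.78 reads in *ZK3*-WT libraries and 3.67 to 5.82 in *ZK3*-KO libraries. Reads from transcripts that extend past *S100A4* were not told apart from those of *S100A5*.

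*S100A3*, nested in the span of *S100A4*, encodes a cysteine-rich protein known from the hair cuticle. It had 1.57, 1.33 and 1.66 CPM in *ZK3*-WT and 0.730, 1.08 and 0.955 CPM in *ZK3*-KO. The genotypes did not overlap, as in 13.8% of all genes tested in this direction, and the log2 fold change of -0.72 with a standard error of 0.28 did not pass the threshold (edgeR adjusted p = 0.239, and 0.141 without *ZK3*-KO replicate 3). *S100A2*, an epithelial S100 gene whose protein binds p53, had 6.22, 4.57 and 6.14 CPM in *ZK3*-WT and 4.74, 7.05 and 8.54 CPM in *ZK3*-KO, with overlapping genotypes and a log2 fold change of 0.27 with a standard error of 0.27 (edgeR adjusted p = 0.651), and 0.07 without *ZK3*-KO replicate 3 (adjusted p = 0.871). *S100A1*, known from heart and skeletal muscle and not among the 10 genes, had 0.493, 0.399 and 0.644 CPM in *ZK3*-WT and 0.233, 0.144 and 0.227 CPM in *ZK3*-KO. Its genotypes did not overlap, and the log2 fold change of -1.34 with a standard error of 0.40 did not pass the threshold (edgeR adjusted p = 0.146, and 0.0753 without *ZK3*-KO replicate 3).

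Within 500 kb of the outermost S100 genes on chromosome 1, the annotation lists 163 genes, of which 26 without an S100 symbol were tested. Of these, 0 passed the threshold in edgeR's test in either direction, 3 had an unadjusted p under 0.05, against 18.4% of all genes tested, and DESeq2 called 1 higher. Without *ZK3*-KO replicate 3, *MRPL9* (log2 fold change 0.75, adjusted p = 0.0243) and *ILF2* (0.75, adjusted p = 0.00724) were called higher. In that analysis 15.1% of all genes were called, 7.41% of them in this direction as a share of all genes. Around *S100P* on chromosome 4, 13 of 35 annotated genes were tested and 0 passed in edgeR's test, with 5 at an unadjusted p under 0.05 and 1 called higher by DESeq2. Without *ZK3*-KO replicate 3, *MRFAP1* was called higher there (log2 fold change 0.44, adjusted p = 0.0448), again against 7.41% of all genes called higher. These 3 neighbours were named after their values were seen. The share of all genes that DESeq2 called was not counted, so its calls here have no background beside them.

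**Figure D2:**
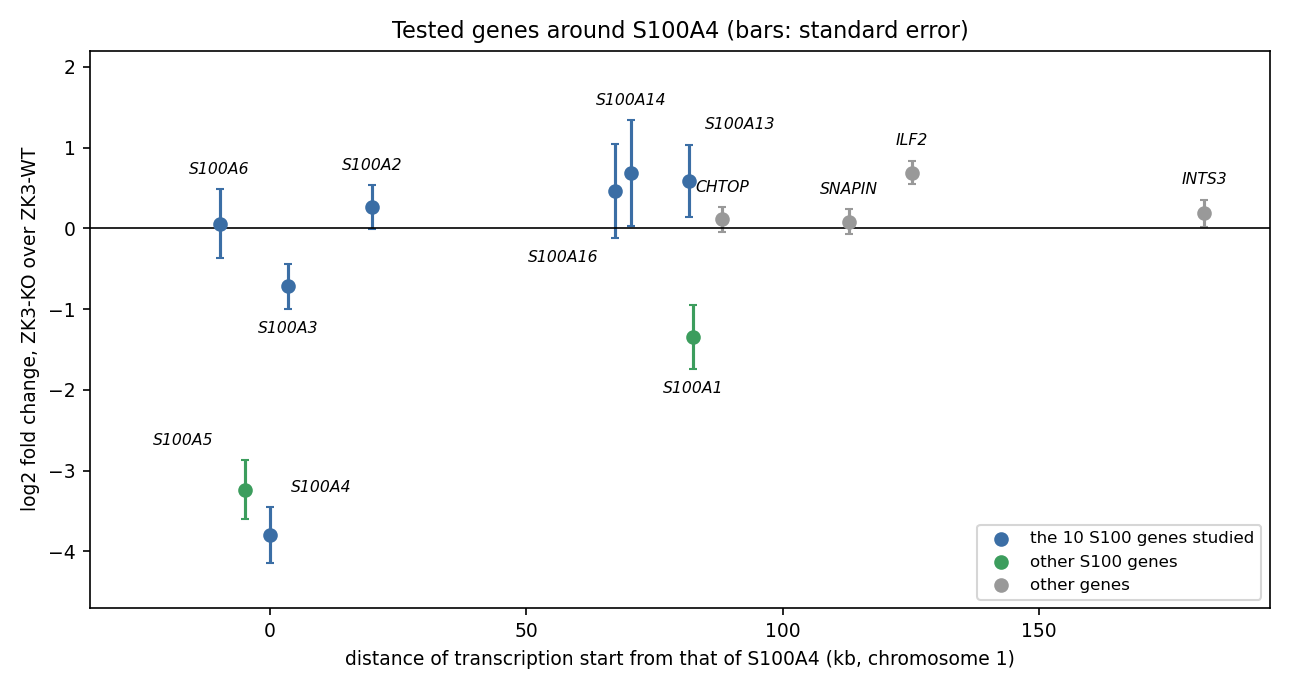
Log2 fold change of *ZK3*-KO over *ZK3*-WT (points, with bars for the standard error) against the distance of each tested gene's transcription start from that of *S100A4* in kb, with the S100 genes studied in blue, other S100 genes in green and other genes in gray. *S100A4* at -3.80 and *S100A5* at -3.24 lie far below the other genes shown, *S100A3*, the nearest start to *S100A4*, lies at -0.72, and *S100A6* and *S100A2* lie at 0.06 and 0.27.

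Of the remaining genes, 5 shared a pattern over the libraries: *S100A6*, *S100A11*, *S100A13*, *S100A14* and *S100A16* were each highest in *ZK3*-KO replicate 3 and lowest in *ZK3*-KO replicate 2, an order found in 10.8% of all genes tested. These 5 genes were grouped after their values were seen. In replicate 3 they were 2.93 to 5.63 times the mean of *ZK3*-KO replicates 1 and 2, and 10.7% of all genes tested were at least 2-fold above that mean. All but *S100A6* (4 of the 9 tested genes) were also over 2-fold above every other library there, against 1.81% of all genes tested. After subtracting the mean of each genotype, Pearson's r of log2 CPM between pairs of the 5 genes was 0.945 to 0.993 over the 6 libraries, a description in which 1 library carries most of the spread.

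*S100A14*, an epithelial S100 gene, had the highest ratio of *ZK3*-KO replicate 3 to the other *ZK3*-KO replicates among the 9 tested genes. It had 100, 115 and 130 CPM in *ZK3*-WT and 86.1, 59.6 and 410 CPM in *ZK3*-KO, so that 2 *ZK3*-KO libraries lay below every *ZK3*-WT library and the other far above. The log2 fold change was 0.69 with a standard error of 0.66 (edgeR adjusted p = 0.629), and without *ZK3*-KO replicate 3 it turned to -0.66 (adjusted p = 0.0466). *S100A16*, the neighbour of *S100A14* and a broadly expressed family gene, had 92.1, 116 and 152 CPM in *ZK3*-WT and 81.8, 72.2 and 343 CPM in *ZK3*-KO. Its log2 fold change was 0.46 with a standard error of 0.58 (edgeR adjusted p = 0.725), and -0.64 without that library (adjusted p = 0.0691).

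*S100A6* encodes calcyclin, a partner of the calcyclin-binding protein. It had 435, 342 and 458 CPM in *ZK3*-WT and 276, 245 and 764 CPM in *ZK3*-KO. The same 2 *ZK3*-KO libraries lay below all *ZK3*-WT libraries and replicate 3 lay above them. The log2 fold change was 0.06 with a standard error of 0.43 (edgeR adjusted p = 0.961), and it turned to -0.65 without replicate 3 (adjusted p = 0.0251).

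*S100A11*, whose protein binds annexin A1, had 79.8, 86.9 and 112 CPM in *ZK3*-WT and 88.6, 62.3 and 242 CPM in *ZK3*-KO, with a log2 fold change of 0.50 and a standard error of 0.47 (edgeR adjusted p = 0.623). *S100A13*, which takes part in the export of fibroblast growth factor 1, had 42.2, 40.2 and 48.2 CPM in *ZK3*-WT and 44.3, 32.4 and 120 CPM in *ZK3*-KO, with a log2 fold change of 0.59 and a standard error of 0.45 (edgeR adjusted p = 0.533). Without *ZK3*-KO replicate 3 the log2 fold changes were -0.29 for *S100A11* (adjusted p = 0.338) and -0.18 for *S100A13* (adjusted p = 0.511). For these 2 genes, *ZK3*-KO replicate 1 lay within the range of *ZK3*-WT. The summed epithelial markers and the summed markers of other cell types given above were also highest in *ZK3*-KO replicate 3 and lowest in replicate 2, and their part in this pattern was not tested. Single markers differed. *CDH1*, *KRT19* and *COL1A1* were likewise highest in *ZK3*-KO replicate 3 and lowest in *ZK3*-KO replicate 2. *KRT8*, *KRT18*, *EPCAM* and *CDX2* were also highest in *ZK3*-KO replicate 3 but lowest in a *ZK3*-WT library. That library was replicate 1 for *KRT8* and *KRT18* and replicate 3 for *EPCAM* and *CDX2*. *KRT20* was lowest in *ZK3*-KO replicate 3. In bulk RNA, fewer cells with a transcript and less of it per cell cannot be told apart.

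**Figure D3:**
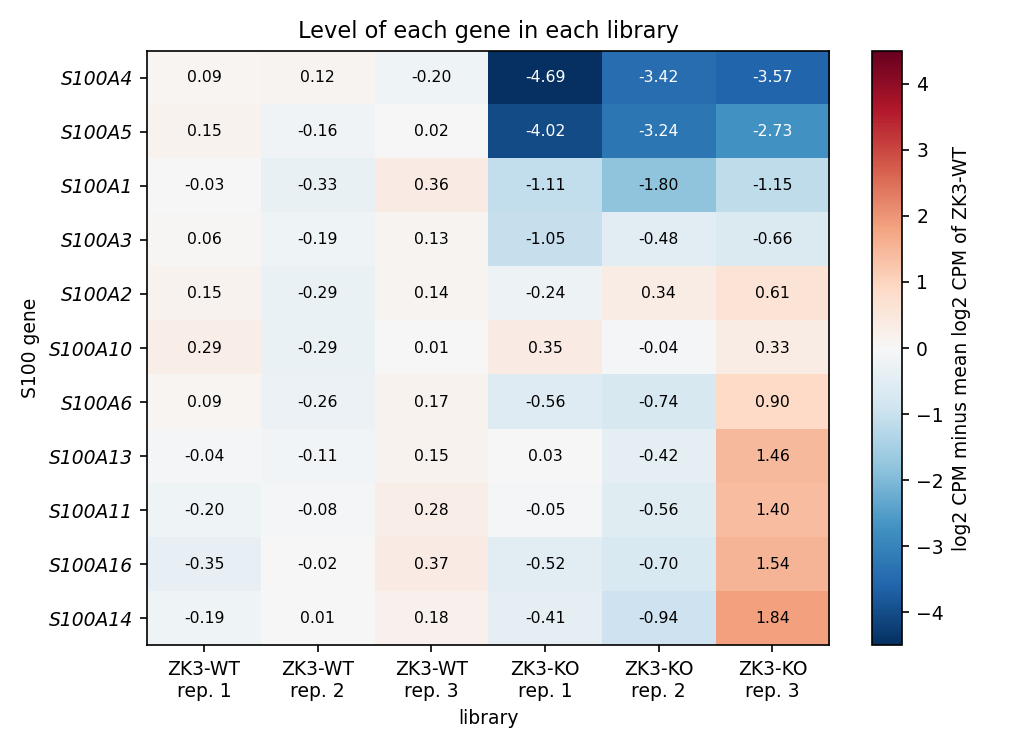
Log2 CPM of 11 S100 genes (rows) in each of the 6 libraries (columns) minus the gene's mean log2 CPM in *ZK3*-WT, printed in each cell, with red above and blue below that mean. *S100A4* and *S100A5* are low in each *ZK3*-KO library, from -4.69 to -2.73, while *S100A6*, *S100A13*, *S100A11*, *S100A16* and *S100A14* are from 0.90 to 1.84 in *ZK3*-KO replicate 3 and from -0.94 to -0.42 in replicate 2.

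*S100A10*, the p11 subunit that pairs with annexin A2 and does not depend on calcium, showed neither pattern. It had 76.8, 51.4 and 63.4 CPM in *ZK3*-WT and 80.5, 61.5 and 79.2 CPM in *ZK3*-KO, with overlapping genotypes. The log2 fold change was 0.21 with a standard error of 0.19 (edgeR adjusted p = 0.619), and 0.16 without *ZK3*-KO replicate 3. *S100P*, first found in placenta, was at the limit of detection and was not tested in the main analysis. It had 7, 6 and 0 reads in *ZK3*-WT and 13, 3 and 28 reads in *ZK3*-KO. The exact Poisson 95% interval of the 28 reads was 18.6 to 40.5 and that of the 7 reads was 2.81 to 14.4. For the 13 and 3 reads of *ZK3*-KO replicates 1 and 2 it was 6.92 to 22.2 and 0.619 to 8.77. Both of these overlap the interval of the 7 reads. The same interval for the 0 reads of *ZK3*-WT replicate 3 reached 3.69 reads. A lower limit of 3 reads would be 0.0437 CPM of the library total. These intervals and limits cover counting error only.

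Over the 9 genes tested, 0 were called higher and 1 lower, 2 had an unadjusted p under 0.05 (18.4% of all genes tested did), and the median log2 fold change was 0.27 against 0.02 over all genes. The genotypes did not overlap for 2 of the 9, both lower in *ZK3*-KO, and for 26.6% of all genes tested (13.8% lower and 12.7% higher). Without *ZK3*-KO replicate 3, 3 genes were called lower (*S100A4*, *S100A6* and *S100A14*) and 0 higher, 5 had an unadjusted p under 0.05 (32.4% of all genes tested did), and the median turned to -0.64. In that analysis 15.1% of 18872 genes passed the threshold, 7.73% lower and 7.41% higher.

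**Figure D4:**
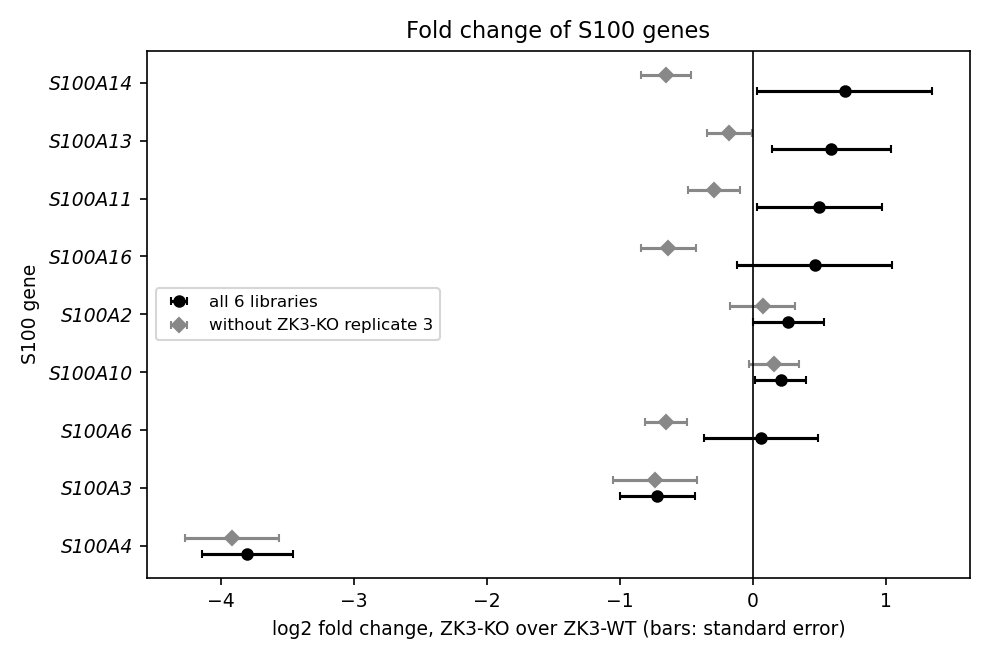
Log2 fold change of *ZK3*-KO over *ZK3*-WT for the 9 tested S100 genes, with bars for the standard error, from all 6 libraries (black) and without *ZK3*-KO replicate 3 (gray). *S100A4* stays near -3.80 and -3.91, while *S100A6*, *S100A11*, *S100A13*, *S100A14* and *S100A16* are above 0 with all libraries and below 0 without that one.

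Apart from *S100PBP*, with 1801 to 2552 reads per library, few reads came from the rest of the family. Of 12 further S100 genes and relatives, 3 were tested, *S100A1*, *S100A5* and *S100PBP*, and 1 was called lower. *S100PBP*, which encodes a binding protein of S100P, had a log2 fold change of -0.17 (edgeR adjusted p = 0.557). *S100A8*, *S100A9* and *S100A12*, known from myeloid cells, had 0 reads in every library, as did *S100B*, *S100G*, *S100Z*, *S100A7A* and *S100A7L2*, and *S100A7* had 2 reads in 1 library. Of 7 fused-type genes, which join an S100 domain to a long repeat, 1 was tested, *TCHH*, with a log2 fold change of 0.63 (edgeR adjusted p = 0.547).

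Among 24 genes for proteins known to bind or work with S100 proteins, 22 were tested, of which 1 was called higher and 1 lower, and the median log2 fold change was 0.03. Without *ZK3*-KO replicate 3 the counts were 2 and 4. Over all genes tested, 2.05% were called with all libraries and 15.1% without that one. An unadjusted p under 0.05 in edgeR's test was found for 6 of the 22 with all libraries and for 10 without *ZK3*-KO replicate 3. The shares of all genes tested were 18.4% and 32.4%. *PPFIBP1*, which encodes the S100A4-binding protein liprin beta 1, had 206, 196 and 212 CPM in *ZK3*-WT and 94.3, 80.5 and 75.3 CPM in *ZK3*-KO. It fell in *ZK3*-KO, with a log2 fold change of -1.30 and a standard error of 0.15 (edgeR adjusted p = 0.00977), and the adjusted p was 0.0601 to 0.0695 when a *ZK3*-WT library was left out and 0.00127 without *ZK3*-KO replicate 3. *DLC1*, a tumor suppressor gene whose product binds S100A10, had 0, 6 and 12 reads in *ZK3*-WT and 109, 131 and 181 reads in *ZK3*-KO. The edgeR adjusted p was 0.0352, and it was 0.0569 to 0.211 when any library other than *ZK3*-KO replicate 3 was left out and 0.00602 without that one.

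The gene of the S100A10 partner annexin A2, *ANXA2*, had 1069, 918 and 1000 CPM in *ZK3*-WT and 622, 536 and 730 CPM in *ZK3*-KO. Its genotypes did not overlap, and the log2 fold change of -0.66 with a standard error of 0.17 did not pass the threshold (edgeR adjusted p = 0.113), but did without *ZK3*-KO replicate 3 (-0.78, adjusted p = 0.00763). *CACYBP*, the gene of the calcyclin-binding protein, had 90.3, 59.7 and 56.2 CPM in *ZK3*-WT and 131, 177 and 54.6 CPM in *ZK3*-KO, where replicate 3 was again apart and this time the lowest. Its log2 fold change was 0.81 (edgeR adjusted p = 0.342), and 1.17 without that library (adjusted p = 0.0111). The log2 fold change was 0.27 for *ANXA1*, -0.24 for the scaffold gene *AHNAK*, -0.25 for *EZR*, whose product ezrin binds S100P, and 0.18 for *MYH9*, the myosin heavy chain bound by S100A4, and edgeR's adjusted p was 0.572 to 0.750 for these 4 genes.

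**Figure D5:**
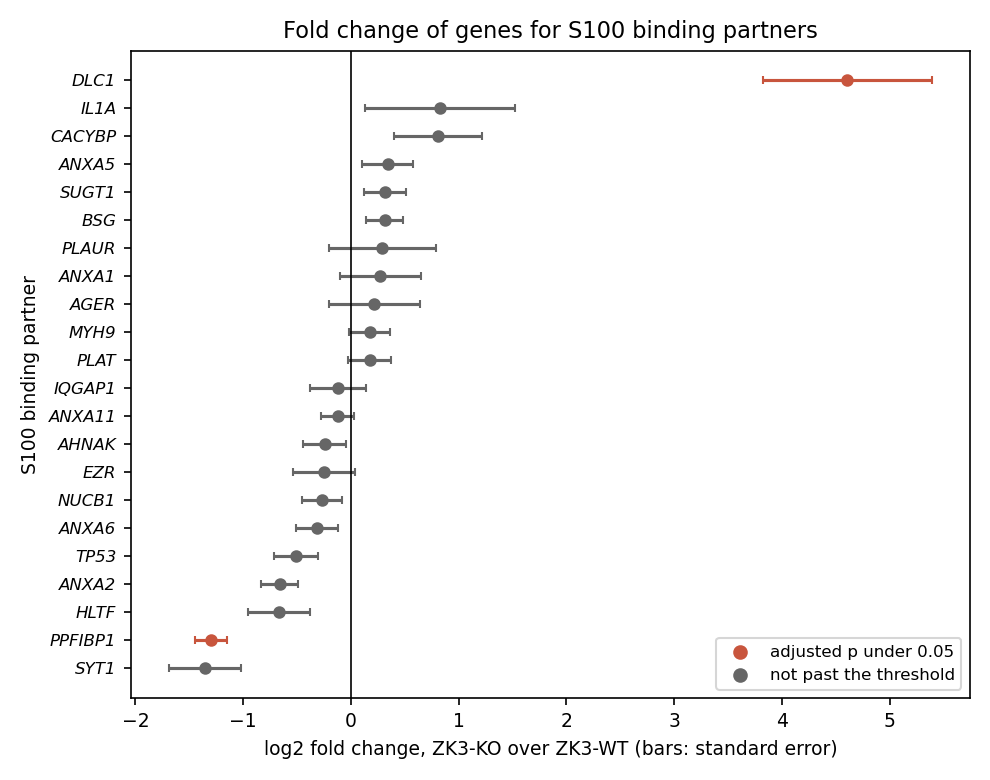
Log2 fold change of *ZK3*-KO over *ZK3*-WT for the 22 tested genes of S100 binding partners, with bars for the standard error and red for an adjusted p under 0.05. *PPFIBP1* at -1.30 and *DLC1* at 4.61 pass the threshold, and the other 20 genes do not.

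Among 26 EF-hand genes outside the family, all 26 were tested, 1 was called higher and 0 lower (3 and 2 without *ZK3*-KO replicate 3, where 15.1% of all genes were called), and the median log2 fold change was 0.11. Of the 26, 4 had an unadjusted p under 0.05 (18.4% of all genes tested did), and DESeq2 called 2 higher and 1 lower. The share of all genes that DESeq2 called was not counted, so its calls cannot be set against a background.

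The genes most like *S100A4* over the 6 libraries, by Pearson's r of log2 CPM among all genes tested, were *ALDH1L1* (0.996), an enzyme of folate metabolism, *ATG10* (0.995), an autophagy gene, and *MFSD3* (0.993), a predicted transporter. *ALDH1L1* had 2.56, 3.45 and 3.13 CPM in *ZK3*-WT and 0.0932, 0.245 and 0.210 CPM in *ZK3*-KO, with a log2 fold change of -4.04 (edgeR adjusted p = 0.00559). The log2 fold changes of *ATG10* and *MFSD3* were -0.40 and -0.83, with edgeR adjusted p-values of 0.229 and 0.0506. Genotype means were not subtracted here, so a steady difference between the genotypes, even a small one, can give a high r.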

How the data were processed

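Polyadenylated RNA of 3 *ZK3*-WT and 3 *ZK3*-KO replicates was sequenced from stranded libraries. The authors deposited 1 table with the count of reads per gene and library, not normalized, beside FPKM and TPM values. The authors' FPKM was not used, and the deposited TPM served for levels between genes and 1 alternative. The study's methods name Bowtie 2 (2.2.5 in the submitters' processing notes) and an Ensembl annotation of hg19, whereas the table lists NCBI Gene identifiers.

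The test was edgeR's quasi-likelihood test on genotype (edgeR 4.0.16 in R 4.3.3, filterByExpr, TMM), with adjustment by Benjamini-Hochberg over 18366 genes and a threshold of 0.05. The scripts were tested on simulated data. Alternatives were DESeq2 1.42.0, library totals, upper-quartile factors, a filter of 1 read in any library, a filter of 10 reads in every library, limma 3.58.1 on log2(CPM + 1) and on log2(TPM + 1), the replicate number as a block, and each library left out. The study fitted an ANOVA to TPM values, and a count test was used here because counts were deposited.

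The genes and the 6 gene lists were chosen with earlier results of these data known. The genes named were the 10 S100 genes, other S100 genes with at least 10 reads in a library, list genes and neighbours past the threshold (the EF-hand gene is not reported here), *ANXA1*, *ANXA2*, *AHNAK*, *CACYBP*, *EZR* and *MYH9*, *ZKSCAN3*, and the 3 genes most like *S100A4*. Positions and protein identity came from GRCh37 exons (Biopython 1.88) and promoters from RefSeq on GRCh38.p14. Libraries with the same number deviated together from their genotype means (correlations 0.294, 0.112 and 0.449), and the number served as a block in 1 alternative only. Any pairing rests on these values, since the labels do not say what a number marks. *ZK3*-WT replicate 1 with *ZK3*-KO replicate 2 had 0.209, above the value of number 2, and the main test carried no block.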

Additional observations from a re-analysis of the deposited data

How the results depend on the processing

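*S100A4* kept its direction and call in all 14 alternatives, with log2 fold changes from -4.03 to -3.49. The number of S100 genes called lower was 1, and 1 to 3 when 1 library was left out, the 3 being without *ZK3*-KO replicate 3. *S100A6* turned to -0.0601 with library totals, -0.13 with limma on CPM, -0.26 with limma on TPM and -0.14 with the replicate block. With 1 library left out, it ranged from -0.65 to 0.34, *S100A11* from -0.29 to 0.83, *S100A13* from -0.18 to 0.91, *S100A14* from -0.66 to 1.11, *S100A16* from -0.64 to 0.82, *ANXA1* from -0.23 to 0.47 and *MYH9* from -0.0024 to 0.29. *S100A16* was -0.0068 with limma on TPM. The analyses of EF-hand genes, other S100 genes, neighbours and single named genes outside the 10 were chosen after seeing the data. Partners called higher numbered 0 with at least 10 reads in every library, and 0 to 2 with 1 library left out. Partners called lower numbered 3 with DESeq2, 2 with limma on TPM and 2 with the replicate block, and 0 to 4 with 1 library left out. EF-hand genes called higher numbered 2 with DESeq2, and 0 with library totals, with all genes of at least 1 read, with limma on TPM and with the replicate block, and 0 to 3 with 1 library left out. EF-hand genes called lower numbered 1 with DESeq2, and 0 to 2 with 1 library left out. Other S100 genes called lower numbered 0 to 1 with 1 library left out. Neighbours called higher numbered 1 with DESeq2 on each chromosome, and 0 to 2 on chromosome 1 and 0 to 1 on chromosome 4 with 1 library left out. The replicate block changed no call of the 9 S100 genes. The cause of these changes was not tested. The share of all genes called was counted only for the main analysis and for that without *ZK3*-KO replicate 3. Counts of few reads, as for *S100P*, limit what this depth can show.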
